A study of Mus musculus with 9 samples.

Results

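The ERK feedback genes examined here were the MAP kinase phosphatases Dusp4, Dusp5 and Dusp6, the Sprouty genes Spry1, Spry2 and Spry4, the Spred genes Spred1 and Spred2, and the ETS factors Etv4 and Etv5. They were picked by name, as known transcriptional outputs of the ERK pathway, with earlier results of these data known. They make up 10 of the 38293 genes in the table of counts. RNA-seq was done on E14, a mouse embryonic stem cell line of the 129/Ola strain, in 3 culture states with 3 libraries each, described by the labels as biological replicates. mESC-2i, the naive state, grew in N2B27 medium with 1 μM of the MEK inhibitor PD0325901, 3 μM of the GSK3 inhibitor CHIR99021 and 10 ng/mL LIF. The titles of these libraries alone also carry the letters LT, which the study's text does not explain. mESC-ser, which the study calls primed, grew on gelatin in medium with 15% foetal bovine serum and the same concentration of LIF, with neither inhibitor. EpiLC were made from naive cells on fibronectin in N2B27 with 20 ng/mL activin A, 12 ng/mL bFGF and 1% KSR, and neither inhibitor nor LIF is listed for that medium. All groups come from 1 cell line, and the labels do not say whether replicates were separate cultures or passages, so p-values measure the spread between these libraries only.

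Fibroblast growth factors and serum factors act through RAS, RAF and MEK on the kinase ERK, and MEK is the step that PD0325901 blocks. Active ERK switches on genes whose products restrain the same pathway. Dusp phosphatases remove the activating phosphates from ERK itself, Sprouty proteins interfere between receptor and RAF, and Spred proteins bring the RAS inhibitor neurofibromin to the membrane. Etv4 and Etv5 are not inhibitors but transcription factors that carry the response onward. In embryonic stem cells FGF-ERK signalling is known for driving the exit from the naive state, and blocking it helps to hold cells in the naive state.

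Promoters were searched for motifs of factors downstream of ERK. Sequences are shown for the 3 genes whose windows matched a pattern that was added after the sequences had been seen. RefSeq start sites (GRCm38.p6, the assembly of mm10) were listed for 7 of the 10 genes, Dusp4, Spry4 and Etv4 being the others, and gave 8 windows from 250 bases before to 50 bases after a start. None of the 8 held the ETS core CCGGAAG, the octamer TGAATGNA of the repressor Cic, or the AP-1 site TGANTCA on either strand, which were found in 8.86%, 3.82% and 7.81% of all 32851 windows. After the sequences had been seen, the 6 bases TGAATG that begin the Cic octamer and the CArG box, the site of serum response factor, were also searched. TGAATG, held by 12.7% of all windows, was found in those of Dusp5, Dusp6 and the downstream start of Etv5, and a CArG box, held by 1.63%, in that of Dusp5. Parts upstream of the start and free of protein-coding exons are printed 5′ to 3′ on the strand of the gene, with the matches in capitals. In Dusp5 (plus strand, chr19:53528895-53529108) the capitals are 2 adjoining CArG boxes, the first beginning 82 bases before the start, while its TGAATG match runs past the end of the printed stretch. In Dusp6 (plus strand, chr10:99262981-99263230) and Etv5 (minus strand, chr16:22438369-22438618, a stretch inside the gene that lies ahead of its downstream start) they are TGAATG or its reverse complement.
Dusp5: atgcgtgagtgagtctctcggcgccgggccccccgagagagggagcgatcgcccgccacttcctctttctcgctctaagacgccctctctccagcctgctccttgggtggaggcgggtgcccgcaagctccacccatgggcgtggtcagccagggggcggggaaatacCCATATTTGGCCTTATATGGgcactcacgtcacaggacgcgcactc
Dusp6: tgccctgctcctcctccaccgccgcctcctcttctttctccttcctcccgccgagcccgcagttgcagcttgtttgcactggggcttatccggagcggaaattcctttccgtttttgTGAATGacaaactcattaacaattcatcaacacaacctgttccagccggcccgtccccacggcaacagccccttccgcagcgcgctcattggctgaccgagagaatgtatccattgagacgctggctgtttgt
Etv5: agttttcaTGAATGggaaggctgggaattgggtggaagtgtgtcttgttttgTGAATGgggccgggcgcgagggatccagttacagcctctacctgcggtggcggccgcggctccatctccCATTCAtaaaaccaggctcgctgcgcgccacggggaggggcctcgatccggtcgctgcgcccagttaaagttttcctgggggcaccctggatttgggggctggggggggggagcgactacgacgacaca
A match of letters does not show that a factor binds there, and the absence of a match in these windows says nothing about sites elsewhere.

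Total counts ranged from 7187576 to 16829549 per library. Levels are given in CPM, read counts scaled to library size with TMM factors over all 9 libraries, and in RPKM, the same divided by exonic length, where genes are set beside each other. The summed levels of 5 pluripotency markers were 2399 to 3179 CPM (mESC-2i), 2306 to 2445 CPM (mESC-ser) and 2056 to 2155 CPM (EpiLC), but its members did not move together. Sox2 averaged 468, 509 and 61.8 CPM and Nanog 649.7, 287 and 61.3 CPM in that order, whereas Pou5f1 averaged 873, 789.7 and 1007 CPM. The summed levels of 5 naive markers were 1585 to 1619, 1055 to 1116 and 27.4 to 31.9 CPM in the same order, and those of 4 formative markers ran the other way, from 71.8 to 80.3 CPM through 609 to 711 CPM to 1620.4 to 1709 CPM. Markers of other cell types also moved with the groups. The 5 primitive endoderm markers summed to 17.9 to 22.1, 31.4 to 32.3 and 6.66 to 8.57 CPM. The 5 fibroblast markers summed to 32.9 to 38.4, 56.3 to 75.1 and 40.8 to 44.7 CPM, and moved apart, Col1a1 averaging 22.5, 49.6 and 1.47 CPM and Thy1 3.05, 4.41 and 29.5 CPM. The 4 trophectoderm markers summed to 30.5 to 34.8, 15.2 to 18.2 and 9.98 to 10.5 CPM, and the 3 primitive streak markers to 77.9 to 99.4, 4.06 to 5.51 and 2.82 to 4.29 CPM. Nearly all of the last sum in mESC-2i was T, or Brachyury, at 77.4, 80.8 and 98.3 CPM in its 3 libraries. Elf5 and Lum were at 0 in all EpiLC libraries, and no other marker was at 0 throughout a group. Their part in the results below was not tested.

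**Figure D1:**
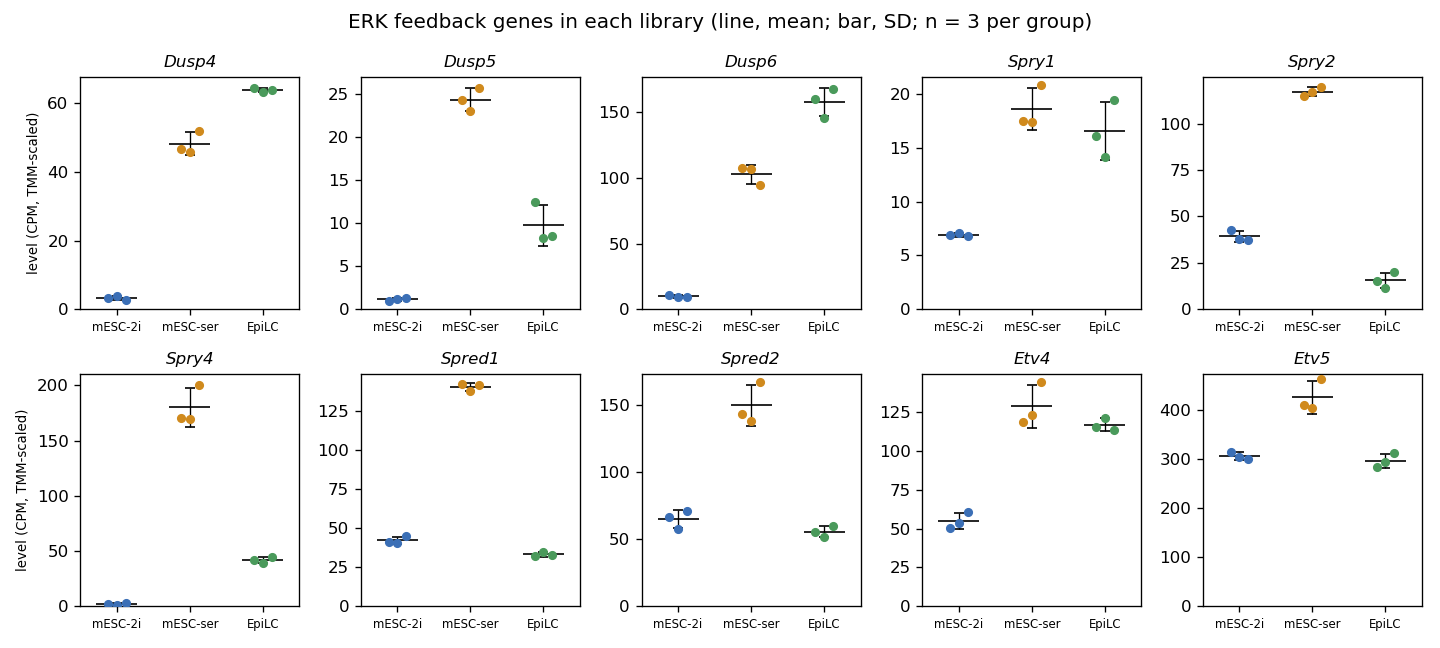
Level of each ERK feedback gene (CPM, linear axis from 0) in the 3 libraries of mESC-2i, mESC-ser and EpiLC, with the mean as a line and the SD as a bar. Dusp4 and Dusp6 were highest in EpiLC, whereas Spry2, Spry4, Spred1 and Spred2 were highest in mESC-ser and Spry2 was lowest in EpiLC.

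The first comparison set serum medium against 2i medium, which differ in both inhibitors and in the base medium. 9 of the 10 genes were called higher in mESC-ser than in mESC-2i and none was lower, whereas among all 15728 genes tested 56.2% were called, 25.9% as higher and 30.3% as lower. Calls required an edgeR adjusted p under 0.05 together with a log2 fold change beyond 0.5 in either direction. The median log2 fold change of the 10 genes was 1.60, against -0.043 over all tested genes. In each of the 10 the lowest mESC-ser library lay above the highest mESC-2i library, which was so for 36.3% of tested genes. All 10 passed the filter on low counts in every comparison. In bulk libraries a change in the share of cells that express a gene and a change in RNA per cell cannot be told apart. Under an adjusted p alone 66.3% of tested genes passed in this comparison, 78.9% when EpiLC was set against mESC-2i and 84.2% when it was set against mESC-ser. With a log2 fold change over 1 as well, 14.1%, 21.6% and 25.2% were higher and 17.2%, 26.9% and 26.7% lower.

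The phosphatases and Spry4 moved furthest. Spry4 (ENSMUSG00000024427; mm10 chromosome 18, 38586247 to 38601415, minus strand) was at 1.84, 1.42 and 2.65 CPM in replicates 1 to 3 of mESC-2i, from 15, 17 and 34 reads, and at 171, 169 and 200.1 CPM in mESC-ser. Its reads were few in every 2i library and plentiful in every serum library, and the groups were apart by 6.43 on the log2 scale (SE 0.19, edgeR adjusted p = 8.1e-09). This lay at the 99.85th percentile of all tested fold changes.

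Dusp5 (ENSMUSG00000034765; chromosome 19, 53529109 to 53542431, plus strand), a nuclear phosphatase specific for ERK, stood at 0.982, 1.25 and 1.33 CPM in mESC-2i and at 24.4, 23.0 and 25.7 CPM in mESC-ser. Its log2 fold change was 4.27 (SE 0.17, edgeR adjusted p = 3.34e-08), and its 2i level rests on 8 to 17 reads per library. Its exons share 547 bases with a gene on the opposite strand and those of Spry1 share 710 bases with another. The library kit does not mark strand, so reads from these stretches cannot be assigned to either gene.

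Dusp4 (ENSMUSG00000031530; chromosome 8, 34807297 to 34819894, plus strand), a nuclear phosphatase with a broader choice of MAP kinases, was at 3.44, 3.75 and 2.73 CPM in mESC-2i and at 46.7, 45.8 and 52.0 CPM in mESC-ser. Dusp6 (ENSMUSG00000019960; chromosome 10, 99263231 to 99267489, plus strand), the cytoplasmic ERK phosphatase, was at 10.9, 9.17 and 9.59 CPM in mESC-2i and at 107, 106 and 94.5 CPM in mESC-ser. Both groups were tight and far apart. The log2 fold changes were 3.81 (SE 0.15, edgeR adjusted p = 3.22e-08) for Dusp4 and 3.32 (SE 0.13, edgeR adjusted p = 2.68e-08) for Dusp6.

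The other Sprouty genes, the Spreds and Etv4 shifted less. Spry2 (ENSMUSG00000022114; chromosome 14, 105891947 to 105896819, minus strand) was at 42.6, 37.8 and 37.6 CPM in mESC-2i and at 115, 117 and 119.5 CPM in mESC-ser, which gave 1.52 on the log2 scale (SE 0.10, edgeR adjusted p = 7.52e-07). Spry1 (ENSMUSG00000037211; chromosome 3, 37639947 to 37644598, plus strand) was at 6.88, 7.09 and 6.78 CPM in mESC-2i and at 17.5, 17.4 and 20.8 CPM in mESC-ser (log2 fold change 1.37, SE 0.14, edgeR adjusted p = 1.23e-05). Both were thus well above 0 in every library grown with the MEK inhibitor, Spry2 from 347 to 482 reads and Spry1 from 56 to 87.

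Spred1 (ENSMUSG00000027351; chromosome 2, 117121374 to 117182279, plus strand) was at 41.3, 40.8 and 44.9 CPM in mESC-2i and at 142, 138 and 141 CPM in mESC-ser. Spred2 (ENSMUSG00000045671; chromosome 11, 19924375 to 20024026, plus strand) was at 66.3, 57.9 and 70.9 CPM in mESC-2i and at 143, 138 and 167 CPM in mESC-ser. The pair rose together, by 1.67 on the log2 scale (SE 0.10, edgeR adjusted p = 2.75e-07) for Spred1 and 1.14 (SE 0.12, edgeR adjusted p = 1.56e-05) for Spred2.

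Of the ETS factors, Etv4 (ENSMUSG00000017724; chromosome 11, 101769742 to 101785371, minus strand) was at 50.2, 53.6 and 60.3 CPM in mESC-2i and at 118, 123 and 145 CPM in mESC-ser (log2 fold change 1.17, SE 0.12, edgeR adjusted p = 1e-05). Etv5 (ENSMUSG00000013089; chromosome 16, 22381309 to 22439719, minus strand) was already at 316, 304 and 302 CPM in mESC-2i and at 410.2, 405 and 465 CPM in mESC-ser. It was the 1 gene of the 10 not called, since its difference of 0.42 (log2, SE 0.10, edgeR adjusted p = 0.00394) passed the threshold on p and missed that on the fold. After a correction for gene length and GC content it was called, at 0.64.

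**Figure D2:**
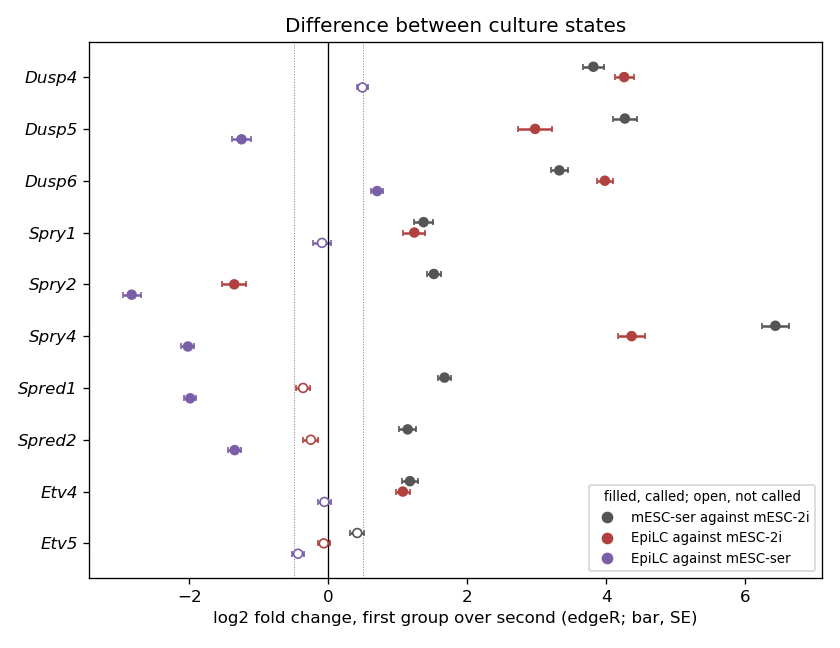
Log2 fold change of each ERK feedback gene in the 3 comparisons, with the SE as a bar. Filled points were called, open points were not, and dotted lines mark the fold threshold of 0.5. The points of mESC-ser against mESC-2i all lie above 0, from 0.42 for Etv5 to 6.43 for Spry4, while those of the EpiLC comparisons lie on both sides of it.

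The second comparison set EpiLC, made from naive cells in bFGF, activin A and KSR on fibronectin, against mESC-2i. The media also differ in both inhibitors and LIF, none of which is listed for EpiLC. 6 of the 10 genes were called higher in EpiLC than in mESC-2i and 1 lower, where 69.8% of 15378 genes tested were called, 32.0% as higher and 37.8% as lower. Their median log2 fold change was 1.16, against -0.11 over all tested genes. The groups did not overlap in 6 genes that were higher, as in 38.6% of tested genes, and in 2 that were lower, as in 43.2%. The 3 phosphatases were all called higher and neither Spred was called, while the Sproutys and the ETS pair were each divided.

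All 3 phosphatases rose. Dusp6 reached 159, 146 and 167 CPM in EpiLC (log2 fold change 3.98, SE 0.11, edgeR adjusted p = 1.33e-09) and Dusp4 reached 64.4, 63.2 and 63.8 CPM (4.26, SE 0.14, edgeR adjusted p = 2.32e-09). Dusp5 reached 12.5, 8.24 and 8.54 CPM, the least even of the phosphatases among EpiLC libraries (2.98, SE 0.25, edgeR adjusted p = 1.4e-06).

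Spry4 rose to 41.7, 39.2 and 44.7 CPM (log2 fold change 4.37, SE 0.19, edgeR adjusted p = 1.59e-08) and Spry1 to 16.1, 14.1 and 19.5 CPM (1.24, SE 0.16, edgeR adjusted p = 3.13e-05). Spry2 went the opposite way, to 15.2, 11.7 and 20.0 CPM, below every 2i library (-1.35, SE 0.17, edgeR adjusted p = 3e-05). It kept this direction and its call under each of the 18 alternatives, at -1.69 to -1.17.

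Neither Spred was called. Spred1 stood at 31.9, 34.9 and 33.0 CPM in EpiLC, below all 2i libraries (log2 fold change -0.36, SE 0.10, edgeR adjusted p = 0.00635), and Spred2 at 55.3, 51.4 and 59.4 CPM, overlapping them (-0.25, SE 0.11, edgeR adjusted p = 0.0524). These small differences depend on scaling. With total counts in place of TMM, which shifts the median of all genes from -0.11 to -0.45, both were called lower, at -0.70 and -0.59, and with the length and GC correction they were at 0.019 and 0.017.

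Etv4 rose to 115, 121 and 113 CPM (log2 fold change 1.07, SE 0.10, edgeR adjusted p = 2.4e-06). Etv5, at 284, 294 and 313 CPM, overlapped the 2i libraries (-0.066, SE 0.089, edgeR adjusted p = 0.51), and its sign turned with RLE scaling, with DESeq2 and with the length and GC correction.

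The last comparison was between EpiLC and mESC-ser, the states grown without the MEK inhibitor. 5 of the 10 genes were lower in EpiLC and 1 was higher, where 73.3% of 15345 genes tested were called, 37.8% as lower and 35.5% as higher. The median log2 fold change of the 10 was -0.84, with and without correction for length and GC, against -0.068 over all tested genes. The groups did not overlap in 6 genes that were lower, as in 46.5% of tested genes, and in 2 that were higher, as in 39.2%.

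Dusp6 was the gene called higher (log2 fold change 0.70, SE 0.085, edgeR adjusted p = 8.36e-07). Every EpiLC library lay above every serum library, although the call was lost with total counts, at 0.36. Dusp4 was also above serum in every EpiLC library (0.49, SE 0.084, edgeR adjusted p = 4.19e-05) and fell just short of the fold threshold. It was called without replicate 3 of mESC-ser (0.55) or replicate 2 of EpiLC (0.50), with RLE scaling and with DESeq2 (both 0.52), and stood at 0.031 once length and GC content were corrected for. Dusp5, in contrast, was lower in EpiLC (-1.25, SE 0.14, edgeR adjusted p = 3.37e-07).

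The other 4 genes called lower were Spry2 at -2.83 (SE 0.13, edgeR adjusted p = 3.78e-12), Spry4 at -2.02 (SE 0.094, edgeR adjusted p = 4.2e-12), Spred1 at -1.99 (SE 0.084, edgeR adjusted p = 1.53e-12) and Spred2 at -1.35 (SE 0.093, edgeR adjusted p = 6.8e-10). They were called in the same direction under all 18 alternatives. The smallest differences were -1.90 for Spry4, -1.15 for Spred1 and -1.26 for Spred2 after the length and GC correction, and -2.64 for Spry2 without replicate 2 of EpiLC.

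For Spry1 and Etv4 the EpiLC and serum libraries overlapped, with log2 fold changes of -0.091 (SE 0.13, edgeR adjusted p = 0.52) and -0.056 (SE 0.088, edgeR adjusted p = 0.562). Their signs turned without replicate 3 of mESC-ser, and that of Spry1 also without replicate 2 of EpiLC. With the length and GC correction Spry1 was called lower at -0.53, and Etv4 was at -0.49. Etv5 was lower in every EpiLC library but short of the fold threshold (-0.44, SE 0.082, edgeR adjusted p = 0.000111). It was called lower with total counts, at -0.78, and just past the threshold with no filter, with at least 10 counts in every library, and with all 9 libraries in one fit.

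The order of the 3 states thus differed from gene to gene. Dusp4 and Dusp6 ran from mESC-2i through mESC-ser to EpiLC, the last step of Dusp4 being short of a call. Dusp5 and Spry4 ran from mESC-2i through EpiLC to mESC-ser. Spry2 ran from EpiLC through mESC-2i to mESC-ser, with gaps larger than the spread between libraries at both steps. Spry1 and Etv4 were low in mESC-2i and did not separate mESC-ser from EpiLC, and Spred2 and Etv5 did not separate mESC-2i from EpiLC. Spred1 was highest in mESC-ser, and its EpiLC libraries lay below those of mESC-2i without a call. These orders are from the main fit. With the length and GC correction Spry1 was called lower in EpiLC than in mESC-ser, at -0.53. Etv4 was then at -0.49 and Dusp4 at 0.031 in that comparison.

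Summed per length within each family, these orders gave unequal totals. The 3 phosphatases held 4.85 ± 0.276 RPKM (SD, n = 3) with 2i, 60.2 ± 0.811 with serum and 77.5 ± 3.98 in EpiLC. The Sproutys held 21.6 ± 1.33 RPKM with 2i, 100.4 ± 5.35 with serum and 22.0 ± 3.51 in EpiLC. With TMM scaling their total in EpiLC thus overlapped that in mESC-2i, while that of the phosphatases did not. The TMM factors were 0.865 to 0.871 in EpiLC and 1.09 to 1.13 in mESC-2i. Comparisons of sums between states depend on them, and no other scaling of the sums was tried. The Spreds held 20.3 ± 1.72, 53.0 ± 3.52 and 16.9 ± 0.752 RPKM, and Etv4 with Etv5 92.5 ± 0.981, 145 ± 12.5 and 110.1 ± 3.29 RPKM in the same order. With 3 libraries against 3 an exact permutation test cannot go below p = 0.10, so sums and shares are given as descriptions.

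Within a family, shares of the summed RPKM do not depend on how libraries are scaled. They do depend on exonic length and on length and GC effects, for which they were not corrected. Those of Spry1 and Dusp5 may also be too high or too low because of the stretches shared with other genes. How reads from these stretches were counted is not given. Spry2 made up 87.0% ± 0.989 (SD, n = 3) of Sprouty transcripts with 2i, 56.0% ± 1.95 with serum and 33.7% ± 3.63 in EpiLC. Spry4 made up 1.92% ± 0.656, 37.7% ± 1.62 and 40.4% ± 3.71, and Spry1 11.0% ± 0.756, 6.36% ± 0.327 and 25.9% ± 0.214. In mESC-2i the family was mostly Spry2, in mESC-ser mostly Spry2 and Spry4, and in EpiLC all 3 genes held a sizeable part. No library of one state overlapped another in the share of Spry1 or Spry2, and for Spry4 only mESC-ser and EpiLC overlapped.

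The phosphatases changed in amount more than in make-up. Dusp6 held 65.2% ± 3.69 of their summed RPKM with 2i, 54.4% ± 3.26 with serum and 64.8% ± 1.57 in EpiLC, the largest part in each state. Dusp5 held 9.97% ± 2.03, 16.4% ± 1.00 and 5.08% ± 1.11, without overlap between states. Spred2 was the larger Spred throughout, at 69.2% ± 1.44, 60.9% ± 2.19 and 70.9% ± 2.22. Etv4 held 19.1% ± 1.77 of the ETS pair with 2i, 28.5% ± 0.791 with serum and 34.2% ± 1.57 in EpiLC, with no overlap. Etv5 remained the more abundant, at 74.8, 104 and 72.5 RPKM on average. The length and GC correction, which is not in these shares, put Etv4 at -0.49 in EpiLC against mESC-ser and left Etv5 not called. How far the shares move with it was not computed.

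**Figure D3:**
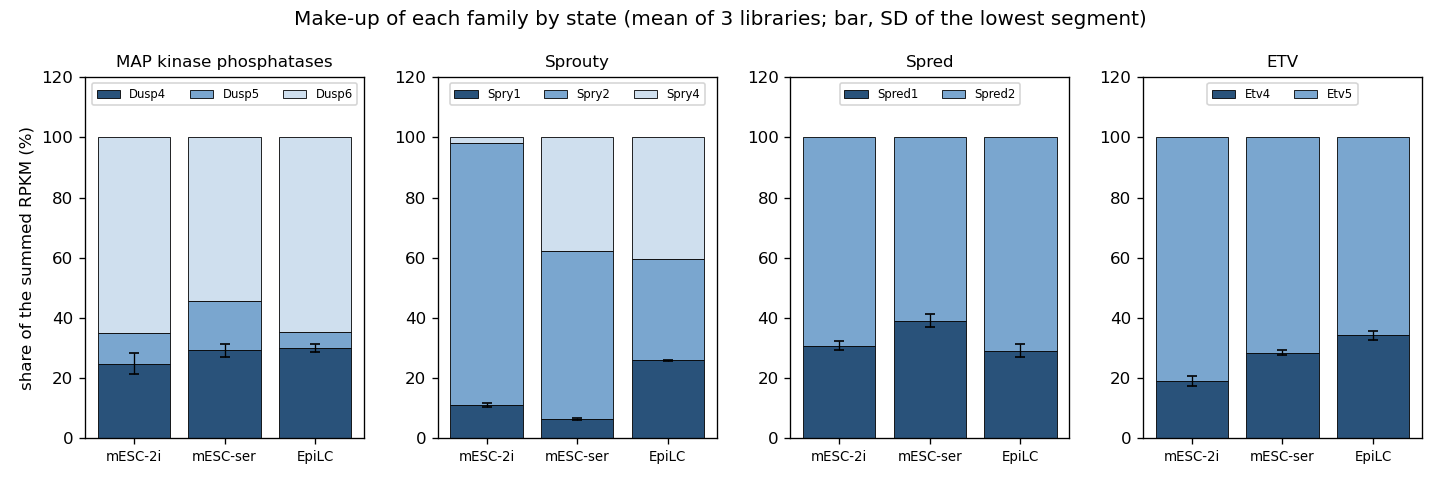
Share of each gene in the summed RPKM of its family (%), as the mean of 3 libraries per state, with the SD of the lowest segment as a bar. Spry2 filled 87.0% of the Sprouty column in mESC-2i and 33.7% in EpiLC, while Dusp6 stayed the largest part of the phosphatases in all states.

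Paralogues outside the 10 genes were followed from a fixed list of 10, of which 9 were tested. Spry3 had 0 counts in every library, below a floor of 3 counts. Serum against 2i gave 4 called higher and 3 lower, with 5 higher and 4 lower in EpiLC against mESC-2i, and 4 higher and 3 lower in EpiLC against mESC-ser. Their medians were 0.21, 0.86 and 0.054. Of all tested genes 56.2%, 69.8% and 73.3% were called in these comparisons. Once length and GC content were corrected for, the paralogues called were 4 higher and 1 lower, 5 higher and 4 lower, and 3 higher and 2 lower.

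The cytoplasmic ERK phosphatase Dusp9 followed Dusp6. It was at 15.2, 17.8 and 15.1 CPM in mESC-2i, at 113, 118 and 129.6 CPM in mESC-ser and at 167, 178 and 185 CPM in EpiLC. The log2 fold changes were 2.85 (SE 0.11) in mESC-ser and 3.44 (SE 0.11) in EpiLC against mESC-2i, and 0.64 (SE 0.082) between them, not called with total counts (0.30) or the length and GC correction (0.13). Dusp7, the other gene of this class, was not called in serum (-0.27, SE 0.14, edgeR adjusted p = 0.11) and rose in EpiLC by 0.86 (SE 0.15). Dusp2, a nuclear phosphatase, had 2 to 5 counts in the mESC-2i libraries and rose by 1.52 (SE 0.37) in mESC-ser and 4.12 (SE 0.34) in EpiLC.

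Dusp1, an immediate early phosphatase, went against the 3 phosphatases above. It was at 46.2, 50.4 and 47.1 CPM in mESC-2i, at 33.5, 31.4 and 33.6 CPM in mESC-ser and at 31.3, 33.4 and 31.7 CPM in EpiLC. It was called lower in mESC-ser (log2 fold change -0.60, SE 0.10, edgeR adjusted p = 0.000367; -0.32 and not called with the length and GC correction) and in EpiLC (-0.59, SE 0.095, edgeR adjusted p = 0.000178). Dusp8, Dusp10 and Dusp16 act mainly on the stress kinases. Dusp8 changed by -0.83 (SE 0.24) in mESC-ser and -1.76 (SE 0.28) in EpiLC, and Dusp10 by -0.64 (SE 0.19) and -0.86 (SE 0.19). The serum calls of both were lost without replicate 1 of mESC-ser, and that of Dusp10 with the length and GC correction. Dusp16 was not called in serum (0.21, SE 0.11, edgeR adjusted p = 0.118) and fell by 1.36 on the log2 scale (SE 0.12) in EpiLC. Between EpiLC and mESC-ser, Dusp2 (2.66, SE 0.25) and Dusp7 (1.17, SE 0.14) were called higher, and Dusp16 (-1.52, SE 0.11) and Dusp8 (-0.89, SE 0.32) lower. The call of Dusp8, on 6 to 49 reads, was lost with DESeq2 and without replicate 3 of either group. Dusp1 and Dusp10 were not called (0.054, SE 0.091, and -0.17, SE 0.20).

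Etv1, the third member of the ETS subfamily of Etv4 and Etv5, rose by 3.41 (SE 0.18) in mESC-ser and 2.04 (SE 0.20) in EpiLC. Its difference between EpiLC and mESC-ser was -1.32 (SE 0.11, edgeR adjusted p = 1.07e-08), but at 0.13 and not called after the length and GC correction. Spred3 was highest in EpiLC, unlike Spred1 and Spred2, with log2 fold changes of 0.84 (SE 0.25) in mESC-ser and 2.08 (SE 0.22) in EpiLC against mESC-2i, and 1.28 (SE 0.13, edgeR adjusted p = 1e-07) between them. Its serum call was lost without replicate 3 of mESC-ser (0.68).

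The kinase cascade that these genes act on was followed as well. Of 22 genes from receptor adaptors to ERK and its RSK substrates, 8 were called higher in mESC-ser than in mESC-2i and none lower, with a median log2 fold change of 0.23, beside 25.9% and 30.3% of all tested genes. Corrected for length and GC content, 3 were called higher and 1 lower. The largest rises were in Braf, a RAF kinase (2.26, SE 0.20), and Ptpn11, the SHP2 phosphatase that transmits receptor signals (1.13, SE 0.12). In EpiLC against mESC-2i 5 were called higher and 10 lower, with a median of -0.46, beside 32.0% and 37.8% of all tested genes. The correction left 6 higher and 5 lower, with a median of -0.061. Hras, a RAS protein, rose by 1.80 (SE 0.13), and the RAS exchange factor Sos2 and the scaffold Ksr1 changed by -2.73 (SE 0.21) and -2.65 (SE 0.22).

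In EpiLC against mESC-ser 4 cascade genes were called higher, led by Hras at 1.84 (SE 0.089), and 14 lower, led by the adaptor Frs2 at -2.84 (SE 0.13) and Ksr1 at -2.79 (SE 0.19). All tested genes gave 35.5% higher and 37.8% lower. The median of the cascade, -0.80, became -0.20 with 5 higher and 8 lower once length and GC content were corrected for. That of the 10 feedback genes was -0.84 either way, but single genes moved, Spred1 up to -1.15 and Spry1 down to -0.53. With the correction 1 of the 10 was called higher and 6 lower. Exons of Braf and Ksr1 each share bases with a gene on the opposite strand.

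Among 15 modulators of the pathway and repressors of its targets, 9 were called higher and 1 lower in mESC-ser against mESC-2i (median 0.56), and 5 higher and 2 lower with the correction (median 0.23). Cbl, a ubiquitin ligase for activated receptors, rose by 2.86 (SE 0.20) and Atxn1l, a partner of Cic, by 2.72 (SE 0.15), while Rasa3, a RAS inhibitor, changed by -1.33 (SE 0.12). In EpiLC against mESC-2i none of the 14 tested was called higher and 7 were called lower (median -0.46), but 3 were higher and 6 lower with the correction (median 0.029). The falls were led by Rasa3 at -3.25 (SE 0.19) and Atxn1, also a partner of Cic, at -3.14 (SE 0.43). Atxn1 had only 1 to 11 counts per EpiLC library, and its exons share 375 bases with a gene on the opposite strand. In EpiLC against mESC-ser none was called higher and 11 were lower (median -1.75), with 1 higher and 9 lower after the correction (median -0.79). The shares of all tested genes are those given for the cascade. Cav1, a membrane scaffold, had at most 1 count in an EpiLC library and was at least 11.0-fold lower there than in mESC-ser against a floor of 3 counts per library, and Atxn1 changed by -2.85 (SE 0.34). Il17rd, a membrane antagonist of FGF signalling chosen after its values were seen, was called higher in mESC-ser (0.56, SE 0.15, edgeR adjusted p = 0.00806) and lower in EpiLC (-1.24, SE 0.14, edgeR adjusted p = 1.54e-05), both against mESC-2i. Leaving out replicate 2 of mESC-2i (0.44) or replicate 3 of mESC-ser (0.45), or correcting for length and GC (0.22), lost the first call.

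**Figure D4:**
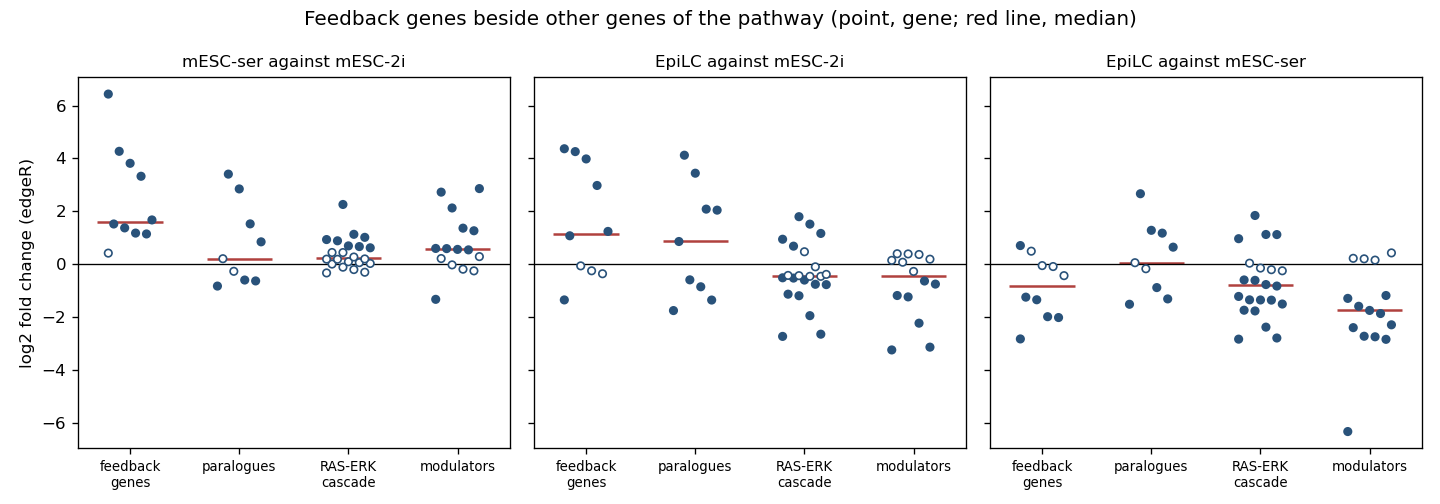
Log2 fold change of the 10 feedback genes and of the fixed lists of paralogues, RAS-ERK cascade genes and modulators in each comparison. Filled points were called, open points were not, and the red line is the median. In mESC-ser against mESC-2i the median of the feedback genes was 1.60 and that of the cascade 0.23.

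At the receptor, Fgf4, the FGF made by the stem cells themselves, ranged over 172 to 185 CPM with 2i, 137 to 148 CPM with serum and 127 to 130.3 CPM in EpiLC. Its log2 fold change against mESC-2i was -0.39 (SE 0.092, not called) in mESC-ser and -0.50 (SE 0.083, called) in EpiLC, the latter at the threshold and lost without any 1 of 4 of the 6 libraries. Fgfr1 rose by 0.63 (SE 0.11) and Fgfr2 by 1.90 (SE 0.17) in mESC-ser, and in EpiLC neither was called against mESC-2i (0.14 and 0.026). Both were called there after the length and GC correction, at 0.56 and 0.62, and the serum call of Fgfr1 was lost with it (0.34). Exons of both receptors overlap other genes.

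The genes with the most similar pattern were sought for each feedback gene by Pearson correlation of log2 CPM over the 9 libraries, among 9754 named protein-coding genes that averaged at least 10 CPM in their highest group. The libraries form 3 groups, so these values mostly describe the 3 group means and carry no p. Nearest to Dusp4 were Wt1 (0.999), Atcay and Crmp1, to Dusp5 Ajuba (0.995), Enc1 and Slc27a2, and to Dusp6 Ramp3 (0.998), Mmp25 and Adk. Nearest to Spry4 were Lrp2 (0.999), Enc1 and Nr6a1, to Spry1 Anp32e (0.991), Rassf3 and Cacng7, and to Spry2 Dhx15 (0.998), Clint1 and Kdm6a. Spred1 was nearest to Cep85 (0.998), Ltn1 and Jarid2, and Spred2 to Taf4 (0.997), Cep170b and Champ1. Etv4 was nearest to Mettl13 (0.996), Ehbp1l1 and Dapk1, and Etv5 to Cmip (0.988), Rab10 and Mthfd1. Among the 10 genes themselves Dusp4 and Dusp6 ran closest, at 0.995, followed by Dusp5 and Spry4 at 0.993 and Spred1 and Spred2 at 0.986, and Spry2 was near 0 with Dusp4 (-0.043) and Dusp6 (-0.095).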

How the data were processed

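Poly-A RNA was sequenced as single-end reads. The authors trimmed reads with TrimGalore 0.6.6, aligned them to mm10 with HISAT2 2.2.1 and counted them per gene with featureCounts (subread 2.0.1). What was deposited is a table of unnormalized read counts by Ensembl gene. The annotation release, strand setting and handling of multiple alignments are not given in the sources used here. Columns were assigned by name, the serum columns from the initials of serum and LIF. Reads carry no molecular identifiers, so counts near 0 and the floor of 3 counts cover counting error only.

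Symbols, positions and exonic lengths came from GENCODE M21 (GRCm38, the assembly of mm10), which matched 36429 of 38293 identifiers (95.13%). Promoters came from RefSeq. The 10 genes and the other lists were chosen with earlier results of these data known. The genes named were the 10, all paralogues, 3 receptor inputs, the 2 largest called rises and falls of the other lists, and the 3 most similar genes of each of the 10. Il17rd was added afterwards, and a gene that this rule names is not reported here.

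For each comparison the 6 libraries concerned were fitted with edgeR 4.0.16 (R 4.3.3) by filterByExpr, TMM and the quasi-likelihood F-test, with Benjamini-Hochberg adjustment over all tested genes. The study's methods give edgeR with a log2 fold threshold of 0.5 and a nominal p of 0.01 for another comparison, of lactate treatment. The fold threshold was kept and an adjusted p under 0.05 used here. SE came from the F statistic, and log2 CPM used a prior count of 2. Adjusted p-values in the text come from this test. Alternatives included DESeq2 1.42.0 and offsets per library from splines (5 degrees of freedom) of length and GC content.

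Same-numbered libraries of mESC-ser and mESC-2i had correlations of 0.129 to 0.345 between their deviations from the group means, against -0.278 to 0.146 for the remaining combinations. The value for replicates 1, 0.129, lay below the 0.146 between replicate 1 of mESC-ser and replicate 2 of mESC-2i. Whether equal numbers mark pairs therefore cannot be told, and what a number stands for is not stated. Values in the text come from the fit without a replicate block, which was run as an alternative. No replicate pair agreed within sampling noise (chi-square per degree of freedom 1.61 to 28.3). Replicate 3 differed most from the others, at 12.6 and 28.3 against 3.85 in mESC-2i and 10.9 and 11.0 against 1.61 in mESC-ser. The steps were tested on simulated data for mESC-ser against mESC-2i. Where a length bias was simulated, most calls of the fit without offsets were false and few of those with offsets were. The simulated bias followed length, which the offsets model, so this does not show that these libraries carry such a bias. Nor does it show that the offsets spare real differences that go with length or GC content. Values with the offsets stand as an alternative beside results they change.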

Additional observations from a re-analysis of the deposited data

How the results depend on the processing

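The 22 calls made among the 10 genes over the 3 comparisons were recomputed under up to 18 alternatives each, 394 values in all, of which 392 kept their direction and call, 2 lost the call and none reversed. Both losses were of Dusp6 in EpiLC against mESC-ser. Dusp5 was not tested against mESC-2i with at least 10 counts in every library. With replicate number as a block 9 of the 10 were called higher in mESC-ser against mESC-2i, and the block changed no other count of calls by more than 1.5 times. For EpiLC the correlations between equal numbers were 0.0202 to 0.112 with mESC-2i, against -0.114 to 0.0111 for the remaining combinations. With mESC-ser they were 0.016 to 0.0332, against -0.0311 to 0.0161. The ranges did not overlap with mESC-2i and did with mESC-ser. What a number stands for is not stated, so pairs are not assumed.

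Among the 10 genes, length and GC offsets gave 10 called higher and 0 lower in mESC-ser against mESC-2i. They gave 6 higher and 1 lower in EpiLC against mESC-2i, and 1 higher and 6 lower in EpiLC against mESC-ser. The number called lower in EpiLC against mESC-2i, 1, was 3 with total counts and 2 on an adjusted p alone. The number called higher in EpiLC against mESC-ser, 1, was 2 with RLE scaling, DESeq2 or an adjusted p alone, and 0 with total counts or a log2 fold change over 1. Leaving out 1 library gave 1 to 2, the 2 coming without replicate 3 of mESC-ser or replicate 2 of EpiLC, when Dusp4 joined Dusp6. All genes called in mESC-ser against mESC-2i were 4935 with a log2 fold change over 1, against 8843. Total counts moved the share of higher genes among calls from 45.9% to 33.7% for EpiLC against mESC-2i, with a median of -0.45 over all genes, and from 48.4% to 37.4% against mESC-ser, with a median of -0.41.

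Among the named genes, signs turned only in differences that were not called, except that of Etv1. In EpiLC against mESC-2i, Etv5 was at 0.00076 with RLE, 0.00097 with DESeq2 and 0.14 with length and GC offsets, which put Spred1 at 0.019 and Spred2 at 0.017. Fgfr1 was at -0.20 with total counts, and Fgfr2 at -0.31 with total counts, -0.034 with at least 10 counts and -0.074 to 0.19 leaving out 1 library. In EpiLC against mESC-ser, leaving out 1 library gave -0.22 to 0.027 for Spry1 and -0.12 to 0.037 for Etv4. Dusp1 was at -0.29 with total counts, -0.032 with no filter, -0.019 with at least 10 counts, -0.017 with all 9 libraries and -0.23 with length and GC offsets, which put Etv1 at 0.13 and Fgfr1 at 0.25. They put Dusp16 at -0.085 in mESC-ser against mESC-2i. The causes of these shifts were not tested. At 8 to 17 counts of Dusp5 and 15 to 34 of Spry4 per mESC-2i library, the size of their fold changes is limited by depth.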
